A study of Rattus norvegicus with 9 samples.

Results

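The 6 sarcomeric myosin heavy chain genes Myh1, Myh2, Myh3, Myh4, Myh7 and Myh8 were followed in the rat gastrocnemius, which lifts the heel and receives its motor axons through the sciatic nerve. They were taken by name, by matching the NCBI gene IDs of the files to RefSeq symbols, and are 6 of 13752 gene IDs listed in any library. Messenger RNA of male rats aged 8 weeks was sequenced in 3 groups of 3 libraries. In DN-SM the sciatic nerve was injured and the muscle was stimulated through the skin every day for 4 weeks from the day of surgery, with square pulses of 25 V, 1 mA and 2 Hz and a labelled width of 300 ms, given 15 min after sodium pentobarbital. In DN the nerve was injured and no current was given, and SHAM had a sham operation. DN and SHAM animals were likewise anaesthetised, shaved and fitted with surface electrodes, so anaesthesia and handling were common to all 3 groups. The labels do not give the strain, the kind of nerve injury, the day of collection for DN and SHAM, the part of the gastrocnemius taken, or whether each library came from its own animal. The p-values therefore measure the spread between these libraries, which may be partly technical.

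Myosin heavy chain is the motor of the thick filament: its head binds actin, splits ATP and pulls the thin filament. Each isoform sets a shortening speed, and the isoform a fibre makes defines its type. Myh7 is the slow isoform of type 1 fibres, Myh2 that of type 2A, Myh1 that of type 2X and Myh4 that of type 2B, the fastest limb fibres of rodents. Myh3 is the embryonic and Myh8 the perinatal isoform, both made by developing and regenerating fibres and replaced by adult isoforms as muscle matures under its nerve. The pattern of nerve impulses is known to influence which adult isoform is made.

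In the RefSeq annotation of the rat assembly GRCr8, Myh3, Myh2, Myh1, Myh4 and Myh8 follow each other in that order on chromosome 10, with Myh13 next. Myh7 lies on chromosome 15 beside Myh6, the cardiac fast isoform. The 250 bases before the annotated start are shown for the 3 adult fast genes, which are neighbours with a stretch of sequence in common, and for the embryonic gene. The windows are chr10:52421898-52422147 for Myh4, chr10:52384662-52384911 for Myh1, chr10:52355489-52355738 for Myh2 and chr10:52268935-52269184 for Myh3, all on the plus strand of GRCr8. Capitals mark a run of 20 bases shared by the adult fast genes and the TATAAA nearest to the start.
Myh4: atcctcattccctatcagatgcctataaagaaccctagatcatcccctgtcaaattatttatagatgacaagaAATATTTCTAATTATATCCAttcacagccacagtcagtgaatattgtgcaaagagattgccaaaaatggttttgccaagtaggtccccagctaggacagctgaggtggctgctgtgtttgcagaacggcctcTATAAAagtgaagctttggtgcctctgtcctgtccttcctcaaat
Myh1: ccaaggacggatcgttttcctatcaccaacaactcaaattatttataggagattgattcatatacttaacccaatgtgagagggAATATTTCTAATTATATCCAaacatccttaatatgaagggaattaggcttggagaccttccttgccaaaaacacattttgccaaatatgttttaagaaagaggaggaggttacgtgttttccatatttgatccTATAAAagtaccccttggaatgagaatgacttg
Myh2: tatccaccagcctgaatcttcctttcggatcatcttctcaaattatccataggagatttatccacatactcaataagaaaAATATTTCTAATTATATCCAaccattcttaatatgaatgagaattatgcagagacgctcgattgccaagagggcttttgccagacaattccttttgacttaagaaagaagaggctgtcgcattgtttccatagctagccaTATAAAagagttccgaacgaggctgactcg
Myh3: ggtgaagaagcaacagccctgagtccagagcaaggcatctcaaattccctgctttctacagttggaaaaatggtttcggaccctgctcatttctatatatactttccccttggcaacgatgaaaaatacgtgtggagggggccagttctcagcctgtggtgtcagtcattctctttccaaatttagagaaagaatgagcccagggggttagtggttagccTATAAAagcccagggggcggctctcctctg

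The shared run began 177 bases before the start in Myh4, 166 in Myh1 and 170 in Myh2. It was present in 5 of 33469 promoter windows of the same length (0.0149%), which belonged to these 3 genes and the uncharacterised RNA gene LOC102555216. Aligned over the window, Myh1 and Myh2 were identical at 76.4% of aligned bases, Myh4 and Myh1 at 70.2%, and Myh4 and Myh2 at 63.2%. The TATAAA nearest to the start, searched on both strands, lay 45 bases before it in Myh4, 33 in Myh1, 30 in Myh2 and 30 in Myh3. Further matches lay 227 and 193 bases before the start in Myh4 and 209 in Myh1, and 12.93% of all windows held this motif. The E-box CANNTG, the site of the myogenic factors, occurred 2 times in Myh4, 1 time in Myh3 and 3 times in Myh7, and 65.54% of windows held it. A match to the MEF2 consensus lay 196 bases before the start in Myh4 and 212 in Myh1, each overlapping a TATAAA on the opposite strand, and 2.96% of windows held such a match. A match to the CArG box, the site of serum response factor, lay 118 bases before the start in Myh4, and 1.5% of windows held one. These matches describe letters in the window and not bound sites.

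Total expected counts ranged from 7926445 to 8893843 per library, and 12232 to 12484 genes were listed in each. The 6 myosin genes took 3.49% to 5.72% of a library's counts, and the actin gene Acta1 took 9.63% to 13.12%. All 6 genes passed the filter on low counts, with Myh8 the lowest at 11.5 to 48.1 expected counts per library. The fibre markers Acta1, Ckm, Des and Mb were present in all libraries, and Ttn was not listed. SHAM replicate 2 stood apart from the other SHAM libraries in its myosin genes, and several results that rest on it are given with and without it. In bulk muscle, fewer fibres of a type and less RNA per fibre cannot be told apart. The adult fast genes are close copies of each other, as are Myh6 and Myh7, and the estimated counts divide reads that match several genes; how reads were divided among them was not tested.

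In DN-SM muscle Myh1 was the most abundant isoform, followed by Myh4, Myh7 and Myh2. The mean levels were 3854 ± 502 FPKM for Myh1, 2253 ± 568 FPKM for Myh4, 1142 ± 472 FPKM for Myh7 and 433 ± 68.5 FPKM for Myh2 (fragments scaled to transcript length and to library size; SD, n = 3 libraries). The ranges of Myh4 and Myh7 overlapped, and Myh7 was above Myh4 in DN-SM replicate 3. In DN muscle Myh7 came next after Myh1, with 2694 ± 566 FPKM for Myh1, 1563 ± 335 FPKM for Myh7, 926 ± 92.3 FPKM for Myh4 and 621 ± 315 FPKM for Myh2 (SD, n = 3). Myh7 exceeded Myh4 in all 3 DN libraries, and the ranges of Myh4 and Myh2 overlapped. In SHAM muscle the mean levels were 3684 ± 2859 FPKM for Myh4, 2423 ± 717 for Myh1, 984 ± 535 for Myh7 and 462 ± 292 for Myh2 (SD, n = 3). There Myh4 led in replicate 2 alone, Myh1 led in replicates 1 and 3, and the ranges overlapped both for Myh4 and Myh1 and for Myh7 and Myh2. Myh3 and Myh8 were the lowest in every library.

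**Figure D1:**
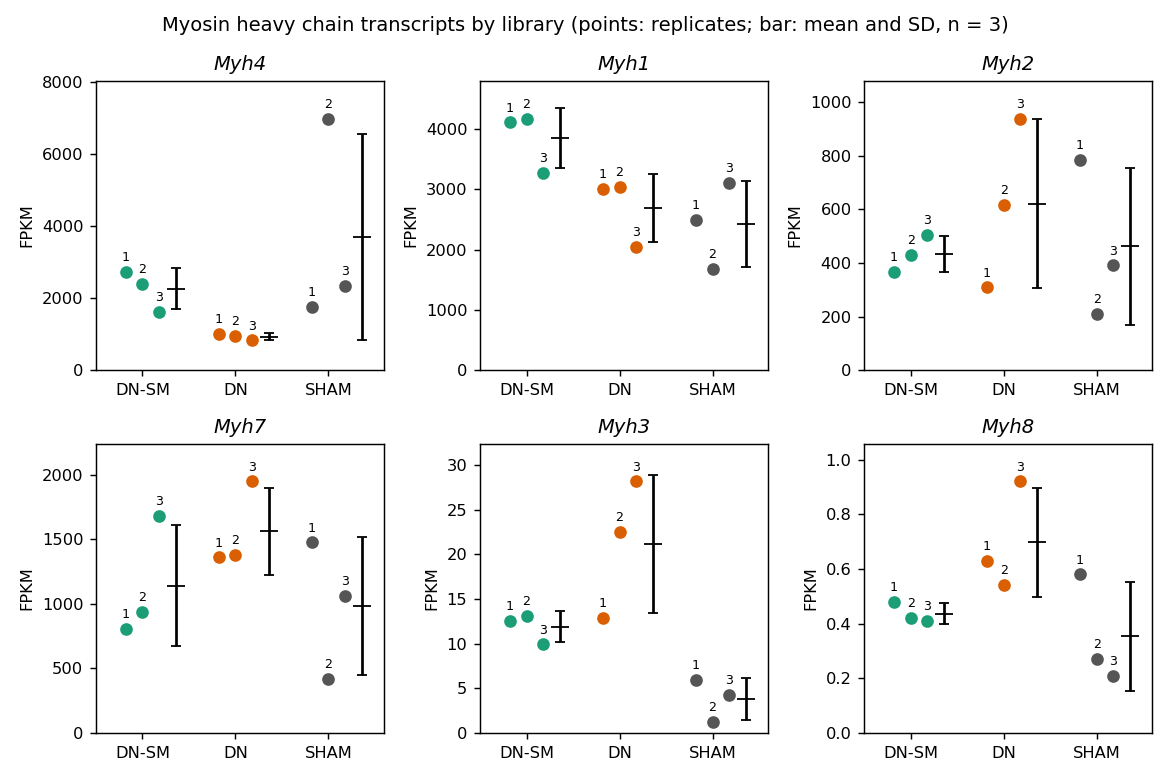
Level of each myosin heavy chain gene in FPKM (vertical axis, from 0, a separate scale per gene) in DN-SM, DN and SHAM libraries; points are replicates with their number, and the bar is the mean with SD (n = 3). The Myh4 levels of DN lie between 827 and 1009 FPKM, below all DN-SM and SHAM libraries, and SHAM replicate 2 stands at 6969 FPKM.

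The comparison of DN with SHAM asks what nerve injury alone does to the set. The embryonic isoform Myh3 was higher in DN, and no other member passed the test (edgeR quasi-likelihood test, Benjamini-Hochberg adjusted p under 0.05 over 10129 genes). That is 1 of 6 members, where 4.26% of all genes passed, 2.57% as higher and 1.70% as lower. In 2 of 6 members the levels of the groups did not overlap, against 22.8% of all genes. Myh3 stood above SHAM, as did 15.9% of all genes, and Myh4 below it, as did 6.91%. No member was called when DN and SHAM were fitted alone, where 1.57% of genes passed, and Myh3 and Myh4 were both called without SHAM replicate 2, where 1.38% passed.

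DN-SM against DN asks what stimulation does to the injured muscle. None of the 6 members passed, where 0.00987% of all genes did, which is 1 gene of 10129 (1784 genes had an unadjusted p under 0.05). DESeq2 called 222 of 10129 genes (2.19%) and none of the members, but it gave Myh8 no adjusted p in this comparison. Levels did not overlap in 3 of 6 members, against 32.7% of all genes. Myh4 and Myh1 stood above DN, as did 11.4% of all genes, and Myh8 below it, as did 21.3%. In a fit of these 2 groups alone, in which 7.21% of genes passed, Myh4 was called as higher, and so it was without SHAM replicate 2, where 3.29% of genes passed.

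DN-SM against SHAM asks how far the injured and stimulated muscle differs from sham-operated muscle. None of the 6 members passed, where 0.839% of all genes did (85 of 10129, with 1293 at an unadjusted p under 0.05). DESeq2 called 266 genes (2.63%), Myh3 among them. Myh1 and Myh3 did not overlap with SHAM and stood above it. These are 2 of 6 members, against 16.8% of all genes without overlap, 7.49% above SHAM and 9.34% below it. No member was called when DN-SM and SHAM were fitted alone, where 0.284% of genes passed, or without SHAM replicate 2, where 1.33% passed. Each group enters 2 of the 3 comparisons, so these are not independent of each other.

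**Figure D2:**
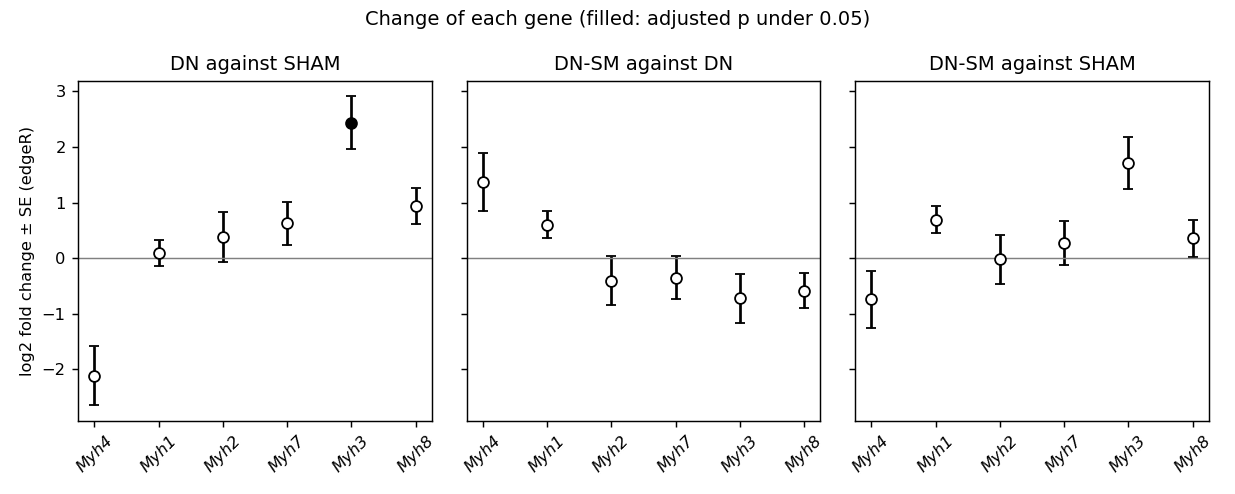
Log2 fold change with its SE (vertical axis) of each gene in the 3 comparisons, from 1 edgeR fit of 9 libraries; filled points have an adjusted p under 0.05. Myh3 in DN against SHAM, at 2.43, is the filled point, and Myh4 has the lowest value there, at -2.11.

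Myh4, the type 2B isoform, had 2732, 2401 and 1626 FPKM in DN-SM replicates 1 to 3, 1009, 942 and 827 FPKM in DN, and 1752, 6969 and 2331 FPKM in SHAM. Every DN library was below every other library, and the DN-SM libraries overlapped with SHAM. SHAM replicate 2 was 2.99 times the next highest SHAM library. In DN against SHAM the log2 fold change was -2.11 with an SE of 0.530 (adjusted p = 0.0625), short of the threshold. Myh4 was called as lower in DN when a SHAM library was left out, at -2.48 without replicate 1 (adjusted p = 0.0307), -1.19 without replicate 2 (0.0332) and -2.35 without replicate 3 (0.0456), and it was also called by DESeq2 (0.0100). All genes called were 2.40% without replicate 1 and 11.5% without replicate 3, and 7.60% by DESeq2. The size of the difference thus depended on SHAM replicate 2, while its sign was negative in each of these fits. In edgeR, Myh4 stayed short of the threshold with DN replicate 1, 2 or 3 left out (adjusted p = 0.144, 0.158 and 0.2). The same held with DN-SM replicate 1, 2 or 3 left out (0.0827, 0.0825 and 0.0631) or with all DN-SM libraries dropped (0.0891). Myh4 also missed the threshold with no filter on low counts (0.132) and with the replicate number as a block (0.0664). In DN-SM against DN the log2 fold change was 1.37 with an SE of 0.518 (adjusted p = 0.233). The fit of DN-SM and DN alone gave 1.38 (adjusted p = 0.0035), and the fit of all groups without SHAM replicate 2 gave 1.38 (0.0110). Against SHAM, DN-SM was at -0.74 with an SE of 0.511 (adjusted p = 0.595), and at 0.19 without SHAM replicate 2.

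Myh1, the type 2X isoform, had 4113, 4173 and 3276 FPKM in DN-SM, 3003, 3037 and 2041 FPKM in DN, and 2492, 1675 and 3103 FPKM in SHAM. All 3 DN-SM libraries were above all DN and SHAM libraries, while DN and SHAM overlapped. The log2 fold change was 0.60 with an SE of 0.242 in DN-SM against DN (adjusted p = 0.234) and 0.69 with an SE of 0.242 in DN-SM against SHAM (0.235). For DN against SHAM it was 0.09 with an SE of 0.241 (adjusted p = 0.860), and its sign was negative without SHAM replicate 2, at -0.094, and without DN replicate 1 or 2. No difference of Myh1 passed the test in any fit tried.

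Myh2, the type 2A isoform, had 366, 429 and 503 FPKM in DN-SM, 309, 617 and 938 FPKM in DN, and 783, 211 and 391 FPKM in SHAM. The 3 groups overlapped, and DN and SHAM each covered a wider range than DN-SM. Its log2 fold change was 0.38 with an SE of 0.442 in DN against SHAM (adjusted p = 0.663), -0.40 with an SE of 0.442 in DN-SM against DN (0.662) and -0.02 with an SE of 0.442 in DN-SM against SHAM (0.992). The value for DN against SHAM was 0.051 without SHAM replicate 2 and 0.015 without DN replicate 3, and 0.88 without SHAM replicate 1 and 0.68 without DN replicate 1. The value for DN-SM against DN was -0.035 without DN replicate 3 and -0.70 without DN replicate 1. The value for DN-SM against SHAM was 0.48 without SHAM replicate 1 and 0.075 without DN-SM replicate 1. Of the adult fast isoforms Myh2 was the one whose groups overlapped in every pair.

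Myh7, the slow isoform, had 805, 940 and 1682 FPKM in DN-SM, 1360, 1378 and 1949 FPKM in DN, and 1477, 416 and 1059 FPKM in SHAM. SHAM replicate 2 was the lowest of the 9 libraries and DN replicate 3 the highest, and DN overlapped with both other groups. The log2 fold change was 0.62 with an SE of 0.390 in DN against SHAM (adjusted p = 0.384) and -0.35 with an SE of 0.389 in DN-SM against DN (0.663). DN-SM against SHAM gave 0.27 with an SE of 0.388 (adjusted p = 0.819), and the value was -0.074 without SHAM replicate 2 and -0.12 without DN-SM replicate 3. Without SHAM replicate 2 the value for DN against SHAM was 0.27. The value for DN-SM against DN was between -0.15 without DN-SM replicate 1 and -0.73 without DN-SM replicate 3.

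Myh3, the embryonic isoform, had 12.6, 13.2 and 9.91 FPKM in DN-SM, 12.8, 22.5 and 28.2 FPKM in DN, and 5.90, 1.21 and 4.25 FPKM in SHAM. Every DN and DN-SM library was above every SHAM library, and DN-SM replicate 2 exceeded DN replicate 1. Myh3 rose in DN against SHAM, with a log2 fold change of 2.43 and an SE of 0.473 (adjusted p = 0.0361). Its call was lost in the fit of the 2 groups alone (adjusted p = 0.0697), without the filter on low counts (0.0696) and when DN replicate 1, 2 or 3 (0.0613, 0.0852 and 0.127), SHAM replicate 3 (0.0540) or DN-SM replicate 1 or 2 (0.0647 and 0.0571) was left out. The log2 fold change in the fits that lost the call by leaving out a library was between 2.22 and 2.66, and over all left-out libraries between 2.02 (without SHAM replicate 2) and 2.79 (without SHAM replicate 1). In DN-SM against DN it was -0.72 with an SE of 0.442 (adjusted p = 0.420). Against SHAM, DN-SM was at 1.71 with an SE of 0.468 (adjusted p = 0.176), and DESeq2 called that difference (1.69, adjusted p = 0.0435). Even in DN replicate 3 Myh3 was 0.487% of the myosin heavy chain FPKM.

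Myh8, the perinatal isoform, had 0.48, 0.42 and 0.41 FPKM in DN-SM, 0.63, 0.54 and 0.92 FPKM in DN, and 0.58, 0.27 and 0.21 FPKM in SHAM. The 3 DN-SM libraries were below the 3 DN libraries, and both groups overlapped in part with SHAM, where replicate 1 was 2.15 times the next replicate. These levels rest on 20.2 to 25.3 expected counts per library in DN-SM, 27.9 to 48.1 in DN and 11.5 to 28.0 in SHAM. The log2 fold change was 0.94 with an SE of 0.322 in DN against SHAM (adjusted p = 0.112), -0.59 with an SE of 0.314 in DN-SM against DN (0.343) and 0.35 with an SE of 0.337 in DN-SM against SHAM (0.703). None of these passed the test. The value for DN-SM against SHAM was 0.79 with SHAM replicate 1 left out and 0.13 with SHAM replicate 3 left out.

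The composition within a library does not depend on how libraries are scaled, and was taken as the share of each gene in the FPKM summed over the 6 genes. Myh4 made up 34.0%, 30.2% and 22.9% in DN-SM, 17.7%, 15.7% and 14.3% in DN, and 26.9%, 75.2% and 33.8% in SHAM. The DN shares were below all others. For this gene the difference of mean shares in DN against SHAM was -29.4 percentage points, and -14.5 without SHAM replicate 2. Myh7 made up 10.0%, 11.8% and 23.7% in DN-SM, 23.9%, 23.0% and 33.7% in DN, and 22.7%, 4.48% and 15.4% in SHAM, so that DN was above SHAM and overlapped with DN-SM. Myh1 made up 49.9% ± 3.34 in DN-SM, 46.2% ± 9.53 in DN and 33.8% ± 14.04 in SHAM (SD, n = 3), so that DN-SM was above SHAM and overlapped with DN. Myh2 made up 5.68% ± 1.29 in DN-SM, 10.6% ± 5.41 in DN and 6.66% ± 4.95 in SHAM, with overlap throughout. Myh3 made up 0.154% ± 0.0130 in DN-SM, 0.362% ± 0.131 in DN and 0.0551% ± 0.0392 in SHAM (SD, n = 3). The shares of Myh3 did not overlap between any pair of groups, unlike its FPKM. With 3 libraries against 3, an exact two-sided permutation test cannot go below p = 0.1, and each share whose groups did not overlap had that value (0.2 after Benjamini-Hochberg adjustment over 18 tests).

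**Figure D3:**
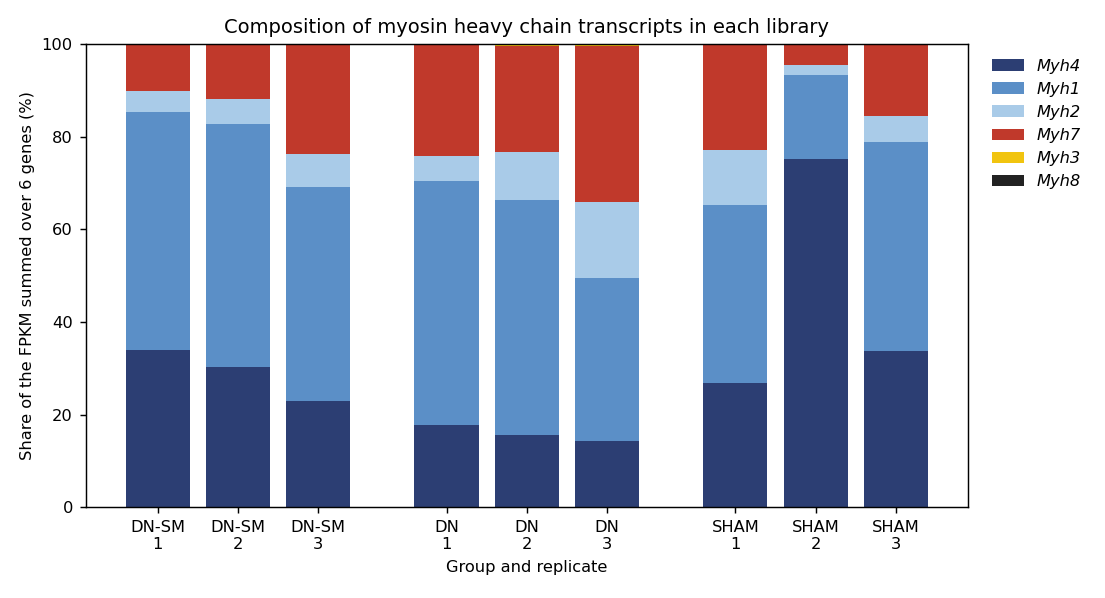
Share of each gene (vertical axis, in % of the FPKM summed over the 6 genes) in each library of DN-SM, DN and SHAM. Myh4 (dark blue) is 14.3% to 17.7% in DN and 75.2% in SHAM replicate 2; Myh3 and Myh8 are too small to be seen on this scale.

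Both fastest isoforms together, Myh4 and Myh1, made up 69.1% to 85.2% of the FPKM in DN-SM, 49.6% to 70.5% in DN and 65.2% to 93.2% in SHAM. The balance between them did not overlap between any pair of groups. The log2 ratio of Myh4 to Myh1 was -0.59, -0.80 and -1.01 in DN-SM, -1.57, -1.69 and -1.30 in DN, and -0.51, 2.06 and -0.41 in SHAM. All SHAM libraries were above all DN-SM libraries, and these above all DN libraries. The difference of means was -1.90 in DN against SHAM, 0.72 in DN-SM against DN and -1.18 in DN-SM against SHAM, each with an exact permutation p = 0.1, the smallest possible (0.3 after adjustment over 15 ratio tests). Without SHAM replicate 2 the differences from SHAM were -1.06 for DN and -0.34 for DN-SM.

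The log2 ratio of Myh4 to Myh7, the fastest to the slow isoform, was 1.76, 1.35 and -0.05 in DN-SM, -0.43, -0.55 and -1.24 in DN, and 0.25, 4.07 and 1.14 in SHAM. DN was below both other groups, which overlapped with each other. The difference of means was -2.56 in DN against SHAM and 1.76 in DN-SM against DN (exact permutation p = 0.1 each, 0.3 adjusted). Without SHAM replicate 2 the difference between DN and SHAM was -1.43. The log2 ratio of Myh2 to Myh7 overlapped in all 3 comparisons, with differences of 0.12 in DN-SM against DN and -0.34 in DN against SHAM. Without DN replicate 1 these were -0.23 and 0.0014.

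The summed FPKM of the 6 genes was 8030, 7956 and 7098 in DN-SM, 5695, 5997 and 5783 in DN, and 6510, 9273 and 6889 in SHAM. The DN libraries lay below all others, and DN-SM overlapped with SHAM. The means differed by -1732 FPKM in DN against SHAM and by 1869 FPKM in DN-SM against DN (exact permutation p = 0.1 each, 0.15 adjusted over 3 tests), and by 138 FPKM in DN-SM against SHAM (exact permutation p = 0.9). The last difference ran from -386 FPKM without SHAM replicate 1 to 995 FPKM without SHAM replicate 2, and was also negative without SHAM replicate 3 or DN-SM replicate 1. Without SHAM replicate 2, DN was 874 FPKM below SHAM. Set against the FPKM of Acta1, the sum was 0.105, 0.0991 and 0.0858 in DN-SM, 0.0659, 0.0740 and 0.0759 in DN, and 0.0935, 0.146 and 0.0981 in SHAM, and the difference between DN-SM and SHAM then had the opposite sign.

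Within each group Myh2, Myh4 and Myh7 followed a common order, which was noticed after the values were seen and has no test. When the 3 libraries of a group were ranked by Myh7, the ranks of Myh2 were the same and those of Myh4 the exact reverse, in DN-SM, in DN and in SHAM. Of 10129 genes tested, 251 (2.48%) had the ranks of Myh7 in all 3 groups and 27 (0.267%) the reverse. Among the 14 partner genes of fast fibres the reverse held for 4, namely Atp2a1, Actn3, Pvalb and Mybpc2. Among the 14 partners of slow fibres the ranks were those of Myh7 for Tnnc1, Myoz2 and Mb. The highest library was 1.68 times the lowest for Myh4 in DN-SM, 1.22 times in DN and 3.98 times in SHAM, so the ranks of Myh4 in DN rest on small differences. The ranks of Myh7 in DN do too, since replicates 1 and 2 had 1360 and 1378 FPKM. The libraries also differ in the markers of tendon, whose summed level was 40.1 to 72.1 FPKM in DN-SM, 84.6 to 113 in DN and 51.0 to 190.0 in SHAM (4 of 5 listed, Mkx not listed), and their part in these ranks was not tested.

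**Figure D4:**
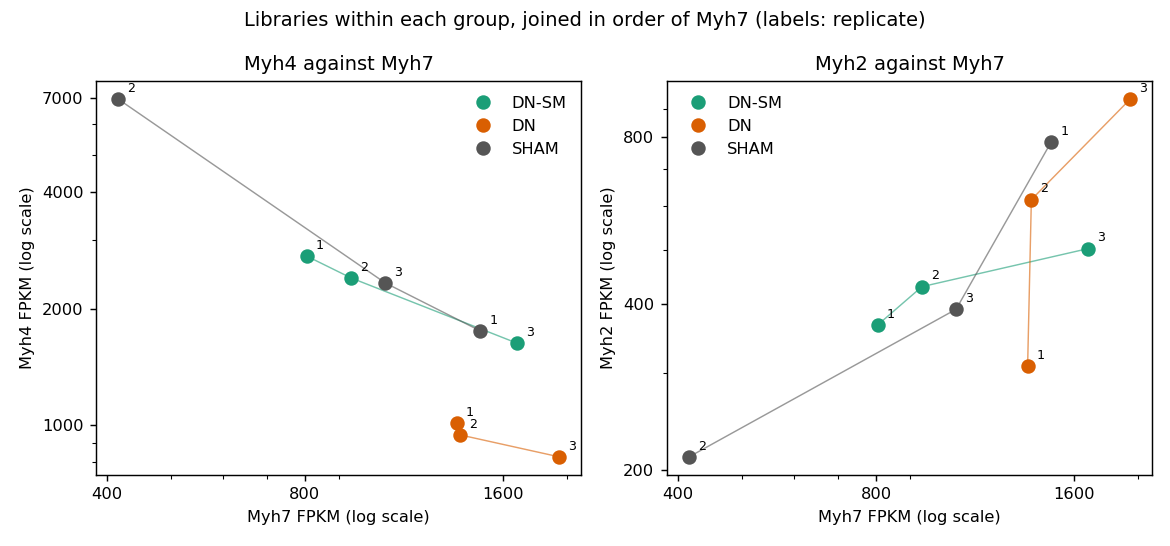
Myh4 (left) and Myh2 (right) in FPKM against Myh7 in FPKM, all on log axes; points are libraries labelled by replicate, and lines join a group's libraries in order of Myh7. Within each group Myh4 goes down and Myh2 goes up along Myh7, and the DN libraries lie at 827 to 1009 FPKM of Myh4.

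Across the 9 libraries the log2 levels of Myh4 and Myh7 had a Pearson r of -0.91 and those of Myh2 and Myh7 of 0.82, while Myh4 and Myh1 had -0.16. These are descriptions over libraries that fall into groups and share depth. The genes most like each isoform were the 5 with the highest r of log2 (FPKM + 1) over the 9 libraries among 5398 genes, and each r is high because it was picked as such. For Myh7 they were Myh6 (0.99), Lmcd1 (0.98), Tnnc1 (0.98), Acadvl (0.98) and Myl2 (0.97). Tnnc1 is the slow troponin C and Myl2 the slow regulatory light chain. For Myh4 they were Fbxl4 (0.95), Cib2 (0.95), Tab2 (0.94), Phkb (0.94) and Agtpbp1 (0.93). Phkb is a subunit of phosphorylase kinase, which starts glycogen breakdown. For Myh2 they were Alg14 (0.99), Tafazzin (0.97), Slc16a1 (0.96), Emp1 (0.96) and Ctdnep1 (0.95). Slc16a1 carries lactate, and Tafazzin remodels the cardiolipin of mitochondria. For Myh1 they were Vps26c (0.83), Dnajc27 (0.79), Arhgdib (0.78), Cmss1 (0.77) and Rgma (0.75). For Myh3 they were Col4a1 (0.99), Acaa2 (0.98), Pxdn (0.98), Rps26 (0.98) and Smoc2 (0.97), of which Col4a1 and Pxdn make and cross-link basement membrane collagen. For Myh8 they were Grina (0.96), Ap5s1 (0.96), Tbc1d22b (0.95), Wars1 (0.94) and Gak (0.94). Myh1 had the lowest values of the 6 genes.

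Of the other myosin heavy chains, Myh6, Myh7b, Myh9, Myh10, Myh11 and Myh14 were tested and none passed in any comparison with all libraries fitted. Without SHAM replicate 3, where 11.5% of all genes passed, Myh9 was called as higher in DN against SHAM (0.69, adjusted p = 0.0207). With all libraries Myh9 was at 0.52 (0.109). The FPKM of Myh6 was 8.22% to 11.3% of that of Myh7 in every library. Its mean was 115 ± 65.6 FPKM in DN-SM, 160 ± 35.1 in DN and 96.1 ± 49.4 in SHAM (SD, n = 3), and whether reads of Myh7 were assigned to it was not tested. Of the 5 cardiac markers 4 were listed, Myh6, Ryr2, Tnni3 and Mybpc3, and Nppa was not. The 2 that were tested, Myh6 and 1 other, had opposite signs in each comparison, and neither was called. Myh13, Myh15 and Myh16 were not listed in any library.

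The partners of fast myosin belong to the sarcomere, its calcium cycle and, with the enzymes Pgam2 and Eno3, to glycolysis. They were lower in DN than in SHAM in 13 of 14 genes by sign. The median log2 fold change was -0.41, against -0.011 over all genes. Called as lower was 1 of 14, where 1.70% of all genes were. The called gene was Mylk2, the kinase that phosphorylates the fast regulatory light chain, with 206, 254 and 159 FPKM in DN against 393, 438 and 479 FPKM in SHAM. Its log2 fold change of -1.16 (adjusted p = 0.00882) was called with each library left out. Atp2a1, the calcium pump of fast fibres, was at -0.51 (adjusted p = 0.160) and Myoz1, a Z-disc protein of fast fibres, at -0.59 (0.0934). Without SHAM replicate 1, where 2.40% of all genes passed, 3 of 14 were called as lower, Mylk2 (0.0154), Myoz1 (0.0305) and the Z-disc gene Actn3 (0.0465). The median was -0.13, with 9 negative, without SHAM replicate 2. Between DN-SM and DN all 14 had a positive sign and none was called, with a median of 0.31, against -0.011 over all genes. Tnnc2, the fast troponin C, had 10374, 10017 and 8901 FPKM in DN-SM against 5955, 7833 and 6794 FPKM in DN, a log2 fold change of 0.61 (adjusted p = 0.187), and Pvalb, a calcium buffer of the fastest fibres, was at 0.77 (0.261). In the fit of these 2 groups alone, where 7.21% of all genes were called, 3 of 14 were called as higher, Tnnc2 (adjusted p = 0.0204), Pvalb (0.0220) and Casq1 (0.0390), the store protein of the sarcoplasmic reticulum. Without SHAM replicate 2, where 3.29% of all genes passed, 1 of 14 was called as higher, Tnnc2 (0.0485). DN-SM against SHAM had a median of 0.11 (-0.13 without SHAM replicate 1, 0.016 without DN-SM replicate 1 and 0.26 without SHAM replicate 2), against 0.015 over all genes. There 0.425% of all genes were called as lower, and 1 partner was, Mylk2, with 220, 235 and 231 FPKM in DN-SM (-0.92, adjusted p = 0.0448). That call was lost when any 1 of the DN-SM libraries was left out (0.121 to 0.174), without SHAM replicate 2 or 3 (0.0595 and 0.101) and without DN replicate 1 (0.0739).

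Of the 14 partners of slow myosin none was called in any comparison. In DN against SHAM all 14 were positive with a median log2 fold change of 0.58, which was 0.96 without SHAM replicate 1 and 0.30, with 10 positive, without SHAM replicate 2. Casq2, the slow and cardiac calcium store protein, averaged 88.6 ± 28.3 FPKM in DN and 36.6 ± 19.7 in SHAM (1.23, adjusted p = 0.159; SD, n = 3). Myl2 was at 3999 ± 806 FPKM in DN and 1983 ± 1158 in SHAM (0.98, adjusted p = 0.237). DN-SM against DN had 13 negative signs and a median of -0.37, with Mybpc1, a slow myosin-binding protein, as the exception at 0.40 (adjusted p = 0.257). That median was -0.23 without DN-SM replicate 1, -0.18 without replicate 2 and -0.82 without replicate 3. Mb, the oxygen store, was at -0.38 (0.338) and Myl3, the slow essential light chain, at -0.75 (0.343). For DN-SM against SHAM 12 of 14 were positive with a median of 0.20. It was negative without SHAM replicate 2 (-0.14) and without DN-SM replicate 3 (-0.34), and 0.41 to 0.59 without SHAM replicate 1 or DN-SM replicate 1 or 2.

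Genes of embryonic and regenerating fibres rose with Myh3 in DN against SHAM in 5 of 14 cases, where 2.57% of all genes were called as higher, and none of the 14 was called as lower. The median log2 fold change was 0.70, against -0.011 over all genes. The 1 gene with a negative sign was H19, with 3241, 3505 and 4734 FPKM in DN against 4198, 6949 and 5977 FPKM in SHAM (-0.68, adjusted p = 0.1265). H19 was called as lower without SHAM replicate 1 (-0.92, 0.0371), where 2.40% of all genes passed. Myog, the myogenic factor that follows loss of nerve input, had 33.7, 31.4 and 40.02 FPKM in DN against 22.6, 13.6 and 19.2 FPKM in SHAM (0.86, adjusted p = 0.0180). Ncam1, an adhesion molecule spread over denervated fibres, had 8.97, 6.32 and 8.79 FPKM in DN against 4.94, 2.41 and 3.68 FPKM in SHAM (1.07, adjusted p = 0.0281). Neither gene overlapped between the groups. Actc1, the cardiac actin of developing muscle, had 176, 88.6 and 249 FPKM in DN against 62.5, 51.5 and 28.2 FPKM in SHAM (1.78, adjusted p = 0.0441). Tnnt2, the cardiac troponin T, was at 1.34 (0.0397), and the growth factor gene Igf2 was at 0.74 (0.0452). The DN library values were above the SHAM values for these genes too. The call of Myog was lost without DN replicate 1 (0.0613) or 3 (0.0853). The call of Ncam1 was lost without DN replicate 1 (0.0964) or 3 (0.103), SHAM replicate 2 (0.0725) or DN-SM replicate 1 (0.0503). Actc1 kept its call only without DN replicate 2 (0.0112; up to 0.157 without the others), and Igf2 only without DN replicate 2 (0.0263) or DN-SM replicate 1 (0.0484), with up to 0.163 otherwise. Tnnt2 kept its call without SHAM replicate 3 (0.0208), DN-SM replicate 1 (0.0452) or DN-SM replicate 3 (0.0416), with up to 0.163 otherwise. When DN and SHAM were fitted alone, Myog was the 1 gene of these still called (0.0353).

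None of these 14 genes was called in DN-SM against DN, where the median was -0.45, against -0.011 over all genes. Actc1 had 64.4, 42.7 and 48.2 FPKM in DN-SM, below all DN libraries (-1.61, adjusted p = 0.144). Myl4, the embryonic and atrial light chain, had 19.5, 23.0 and 24.0 FPKM in DN-SM against 35.7, 34.8 and 43.4 FPKM in DN (-0.68, adjusted p = 0.187). It was the 1 gene of these called as lower in the fit of these groups alone (0.0108), where 7.21% of all genes passed. The same held without SHAM replicate 2 (0.0324), where 3.29% passed. For DN-SM against SHAM, where 0.415% of all genes were called as higher, 1 of 14 was, Igf2, with 39.96, 30.1 and 31.8 FPKM in DN-SM against 17.5, 17.2 and 15.1 FPKM in SHAM (1.06, adjusted p = 0.0291), and the median was 0.50, against 0.015 over all genes. Its call was lost when any 1 of the DN-SM libraries was left out (0.0570 to 0.109), without SHAM replicate 1 or 3 (0.0856 and 0.0895) and without DN replicate 1 (0.0645).

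**Figure D5:**
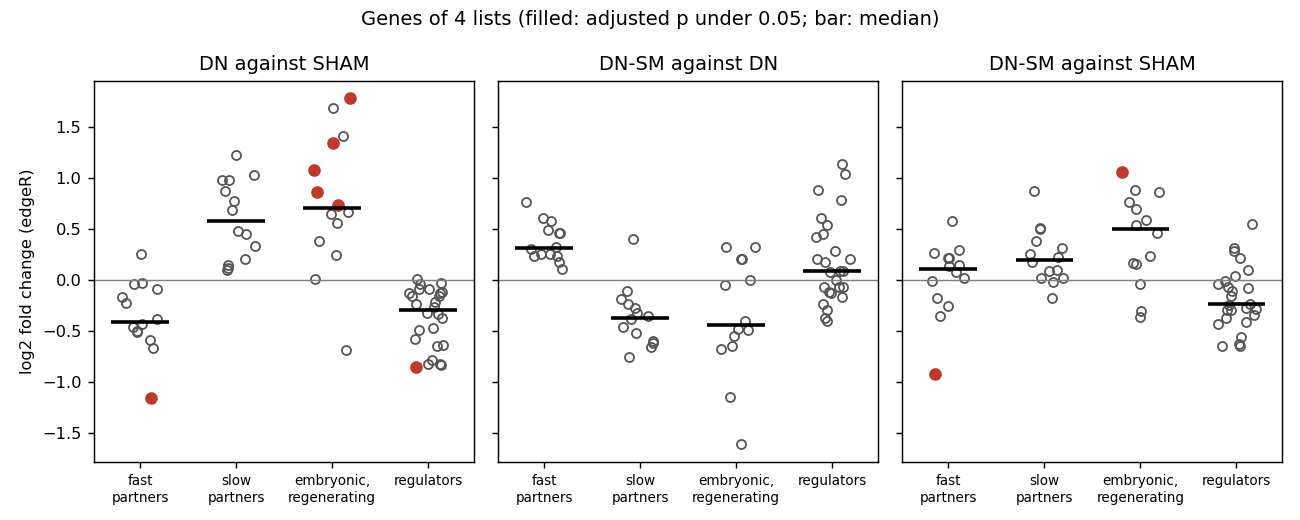
Log2 fold change (vertical axis, edgeR) of the genes of 4 lists in the 3 comparisons; open points did not pass, filled points have an adjusted p under 0.05, and bars are medians. The fast partners have a median of -0.41 and the slow partners of 0.58 in DN against SHAM, against 0.31 and -0.37 in DN-SM against DN.

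Regulators of fibre type were counted as well. In DN against SHAM 25 of 26 had a negative sign with a median log2 fold change of -0.30, against -0.011 over all genes. Called as lower was 1 of 26, where 1.70% of all genes were. Ppp3cb, a catalytic subunit of the phosphatase calcineurin, had 32.7, 28.3 and 31.0 FPKM in DN against 52.2, 70.0 and 35.7 FPKM in SHAM, with a log2 fold change of -0.86 (adjusted p = 0.0441). That call was kept without SHAM replicate 3 (0.00361) and lost with each other library left out (0.0567 to 0.155), and the value was -0.54 without SHAM replicate 2. Without SHAM replicate 3, where 11.5% of all genes passed, 4 of 26 were called as lower, Ppp3cb and Ppp3ca (-1.03, 0.0276) among them. Maf, a factor of type 2B fibres in mice, was at -0.65 (adjusted p = 0.0999). No regulator was called in DN-SM against DN (median 0.083), where the smallest adjusted p was 0.144. At that value were Ppp3ca, the other main calcineurin subunit, with 17.8, 15.0 and 16.4 FPKM in DN-SM against 9.62, 8.18 and 7.72 FPKM in DN (1.04), Ppp3cb, with 48.7, 50.5 and 49.2 FPKM in DN-SM and the DN values above (0.78), and Tbx15, a factor of glycolytic fibres in mice, with 38.2, 44.2 and 39.6 FPKM in DN-SM against 24.0, 24.9 and 21.5 FPKM in DN (0.88). All 3 stood above DN without overlap, as did 11.4% of all genes. In the fit of DN-SM and DN alone, where 7.21% of all genes passed, 4 of 26 regulators were called as higher. Among them were Ppp3ca (adjusted p = 0.00212), Ppp3cb (0.00166) and Tbx15 (0.00212). Without SHAM replicate 2, where 3.29% of all genes passed, 3 of 26 were called as higher, Ppp3ca (0.00761), Ppp3cb (0.0110) and Tbx15 (0.00813). None of 26 was called in DN-SM against SHAM, where the median was -0.24 and Hdac5, a repressor of MEF2 targets, was at -0.41 (adjusted p = 0.121). Without SHAM replicate 2, where 1.33% of all genes passed, 1 of 26 was called as higher there, Tbx15 (0.87, adjusted p = 0.0124). With all libraries Tbx15 was at 0.55 (0.281).

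Among 13 thick filament and myosin folding genes none was called in DN against SHAM or in DN-SM against DN with all 9 libraries fitted. The medians were -0.15 and 0.27. Trim55, a ring finger protein of the thick filament, had 21.9, 21.8 and 21.7 FPKM in DN-SM, 15.1, 17.3 and 17.3 FPKM in DN and 16.7, 15.5 and 11.7 FPKM in SHAM. It was the 1 of 13 called as higher in DN-SM against SHAM (0.60, adjusted p = 0.0495), where 0.415% of all genes were. That call was kept without SHAM replicate 2 (0.0213) and lost with each other library left out (0.0739 to 0.183). It was also lost in the fit of DN-SM and SHAM alone (0.121). Myom2, a protein of the M-band of fast fibres, was at 0.60 in DN-SM against DN (0.144), and Trim55 at 0.49 (0.144). In the fit of DN-SM and DN alone, where 7.21% of all genes passed, 2 of 13 were called as higher, Trim55 (0.0117) and Myom2 (0.0305). Trim55 was also called there without SHAM replicate 2 (0.0342), where 3.29% of all genes passed, or 3 (0.0223), where 416 of 10298 did. Trim63, a ubiquitin ligase that binds myosin for degradation, was at -0.36 in DN against SHAM (0.173).

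Markers of other cell types differed between the groups as well. The 5 Schwann cell markers, all listed, summed to 47.5 to 117 FPKM in DN-SM, 82.5 to 208 FPKM in DN and 33.2 to 38.1 FPKM in SHAM, and Ngfr was called as higher in DN against SHAM (1.83, adjusted p = 0.0136), a call lost without DN replicate 1 (0.0518) or 3 (0.0525). The 5 endothelial markers, all listed, summed to 93.9 to 100.2 FPKM in DN-SM, 104 to 134 FPKM in DN and 70.2 to 84.8 FPKM in SHAM, with no overlap between any pair of groups. Pecam1 (0.63, adjusted p = 0.0123) and Cdh5 (0.65, 0.0137) were higher in DN against SHAM, calls lost without DN replicate 3 (0.0612 and 0.0736), while Kdr was at -0.086 (0.778). Cdh5 was also called as higher in DN-SM against SHAM (0.59, adjusted p = 0.0448). That call was lost when any 1 of the DN-SM libraries (0.0917 to 0.191), SHAM replicate 1 or 3 (0.0980 and 0.101) or DN replicate 2 (0.0761) was left out. Of the 5 endothelial markers, 2 were positive and 3 negative in DN-SM against SHAM, with a median log2 fold change of -0.043. The 5 adipocyte markers, all listed, summed to 105 to 132 FPKM in DN-SM, 116 to 161 FPKM in DN and 78.8 to 102 FPKM in SHAM. The sum in SHAM lay below that of both other groups. The 4 adipocyte markers tested were all positive in DN against SHAM, with a median log2 fold change of 0.75, and none was called in any comparison. In DN-SM against SHAM 1 of these 4 was positive and 3 were negative, with a median of -0.43, unlike the sum. The sums of the fibroblast markers, 265 to 383 FPKM in DN-SM against 384 to 564 FPKM in DN, and of the smooth muscle and pericyte markers, 110 to 146 FPKM in DN-SM against 156 to 183 FPKM in DN, did not overlap between these groups, and none of either list was called. Of the 5 satellite cell markers, which summed to 10.9 to 12.0 FPKM in DN-SM, 10.6 to 15.1 FPKM in DN and 10.1 to 12.8 FPKM in SHAM, none of the 3 tested was called. The part of these markers in the levels of the myosin genes was not tested.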

How the data were processed

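Libraries were made from 1 µg of total RNA each and read on a BGISEQ-500, per the labels' protocols. Per the file headers, the deposited files give each listed gene an expected count, which is RSEM's estimate without normalization, and an FPKM, which the authors scaled to effective transcript length and library size. Genes not listed in a file were set to 0. The build rn6 and the tools HISAT2, GATK and RSEM come from the submitters' processing notes; versions and settings are not given in the sources used here. RefSeq symbols matched 13649 of 13752 IDs by gene ID and 7 by accession.

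Rounded expected counts of the 9 libraries were fitted together in edgeR 4.0.16 (R 4.3.3) with group as the only term. TMM factors were used, filterByExpr (min.count 10, min.total.count 15) left 10129 genes, and the robust quasi-likelihood F test was two-sided with Benjamini-Hochberg adjustment over all genes and a threshold of 0.05. The script was tested on simulated data. Shares, log2 ratios and sums of FPKM had exact two-sided permutation tests (20 arrangements at 3 against 3). Alternatives were RLE and upper-quartile factors, library sizes without the 20 most abundant genes, DESeq2 1.42.0, limma 3.58.1 on log2(FPKM + 1) or log2(FPKM + 0.1), no filter, a CPM filter (1 in 3 libraries), fits of 2 groups, the replicate number as a block, and leaving out each library. Counts and medians of the lists under left-out libraries and in fits of 2 groups were added after seeing the data.

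The myosin genes and the gene lists were chosen with earlier results of these data known. Named genes were the 6 members, list genes past the threshold or otherwise up to 3 with the smallest adjusted p, not all of which are printed, and for likeness the 5 genes with the highest correlation among those with a mean FPKM of at least 5. Genes called only in fits of 2 groups or with a library left out, cell type markers and the order within groups were named after their values were seen. Promoter windows are RefSeq's for GRCr8, not the authors' build. A gene of the regulator list is not reported by name here.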

Additional observations from a re-analysis of the deposited data

How the results depend on the processing

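Of the results tried under other settings, the sign of the members' log2 fold changes was kept in all but these cases. Myh2 in DN-SM against SHAM was 0.0958 by limma on log2(FPKM + 1), with the filter or without, 0.0965 on log2(FPKM + 0.1) and 0.0023 with the replicate block. With 1 library left out, log2 fold changes that changed sign ranged from -0.094 to 0.35 for Myh1 in DN against SHAM, and in DN-SM against SHAM from -1.11 to 0.19 for Myh4, -0.35 to 0.48 for Myh2 and -0.12 to 0.59 for Myh7. The members called in DN against SHAM were 2 by DESeq2 and 0 without a filter, in the fit of 2 groups or with the replicate block, and 0 to 2 with 1 library left out. They were 1 in DN-SM against DN in the fit of 2 groups (0 to 1 with 1 library left out) and 1 in DN-SM against SHAM by DESeq2.

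All genes called in DN against SHAM were 770 by DESeq2, 268 and 252 by limma with a pseudocount of 1 or 0.1, 112 by limma without a filter and 156 in the fit of 2 groups, and 58 (without DN replicate 3) to 1183 (without SHAM replicate 3) with 1 library left out. They were 222 by DESeq2, 716 in the fit of 2 groups, 0 by limma with a pseudocount of 0.1 and 0 (without SHAM replicate 1, each of the DN libraries, or DN-SM replicate 2 or 3) to 416 (without SHAM replicate 3) with 1 library left out in DN-SM against DN, and 266 by DESeq2, 41, 44 and 12 by limma (pseudocount 1, 0.1, and without a filter), 28 in the fit of 2 groups, 39 with the replicate block and 15 (without DN-SM replicate 1) to 137 (without SHAM replicate 2) with 1 library left out in DN-SM against SHAM. Each left-out library moved these counts by over 1.5 times, except DN-SM replicate 3 in DN against SHAM and DN replicate 3 in DN-SM against SHAM. The cause of these shifts was not tested. Same-numbered libraries correlated at -0.048 to 0.109 in their deviations from the group means, and other pairs of libraries from different groups at -0.097 to 0.066. With 3 libraries a group, whether the numbers pair samples cannot be told from these values. The block gave 317 calls in DN against SHAM and 1 in DN-SM against DN.

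Shares that changed sign with 1 library left out ranged from -1.75 to 6.98 percentage points for Myh1 in DN-SM against DN, and in DN-SM against SHAM from -3.17 to 1.71 for Myh2, -3.85 to 5.25 for Myh7 and -0.00030 to 0.0027 for Myh8. Log2 ratios ranged in DN-SM against SHAM from -1.45 to 0.49 for Myh4 to Myh2 and -1.58 to 0.33 for Myh4 to Myh7, in DN against SHAM from -0.84 to 0.24 for Myh1 to Myh2 and -0.54 to 0.0014 for Myh2 to Myh7, and in DN-SM against DN from -0.23 to 0.32 for Myh2 to Myh7. The summed FPKM in DN-SM against SHAM ranged from -386 to 995, and was -0.0160 as a ratio to Acta1. List medians that changed sign ranged from -0.20 to 0.39 for the other myosins in DN against SHAM, and in DN-SM against SHAM from -0.37 to 0.18 for these, -0.13 to 0.26 for fast partners, -0.34 to 0.59 for slow partners and -0.025 to 0.30 for thick filament genes.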
